A study of Homo sapiens with 2 samples.

Results

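The 10 integrin subunits described here were chosen by a fixed list of Ensembl gene IDs, 6 α chains (ITGA2, ITGA3, ITGA4, ITGA5, ITGA6 and ITGAV) and 4 β chains (ITGB1, ITGB4, ITGB5 and ITGB8). All 10 were among the 18394 features of the expression table, each with 1 row, and the list that chose them pairs each ID with its symbol. Total RNA was measured on 1 Affymetrix array from each of 2 flask cultures. One was parental MDA-MB-231, a human breast cancer cell line that lacks the oestrogen receptor. The other was its variant MDA-MB-231(SA), known for forming bone metastases in mice. Neither culture carried a treatment or a genetic change named in the labels, and both grew in the same low-glucose medium with serum. With 1 array per line there was no replicate, so no difference has a test, an error or a p-value, and precision is limited by the number of arrays. A difference between the 2 cultures and a difference between the 2 lines cannot be told apart.

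Integrins are cell surface receptors made of 1 α and 1 β chain, which bind matrix proteins outside the cell and, through the β chain's tail, the actin or keratin cytoskeleton inside it. The pair of chains sets the ligand, and chains without a partner are mostly kept inside the cell. ITGB1 can pair with each of the α chains listed here. In breast cancer cells integrins are studied for adhesion, migration and growth in bone, a tissue rich in collagen, fibronectin and vitronectin.

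The values are log2 expression levels as the authors deposited them. Genes were compared only where the level on either array was at or above a floor of 5.62, the median over the whole table. Of the 10 subunits, 6 reached the floor, all of them on both arrays: ITGA2, ITGA3, ITGA5, ITGA6, ITGAV and ITGB5. The other 4, ITGA4, ITGB1, ITGB4 and ITGB8, lay below it on both. A level of one gene cannot be set against that of another, because each has its own probes; comparisons are between the arrays, gene by gene.

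The fibronectin receptor chain ITGA5 and the vitronectin receptor chain ITGB5 were both more than 2-fold lower in the SA variant. They were the 2 subunits of the 6 compared that passed this size, and 0 of the 6 were at least 2-fold higher. Among all 9725 genes compared, 4.17% were at least 2-fold lower and 5.75% at least 2-fold higher. The laminin receptor chain ITGA3 was 1.62-fold lower. The collagen receptor chain ITGA2, the laminin receptor chain ITGA6 and the αV chain ITGAV differed by less than 1.5-fold.

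**Figure D1:**
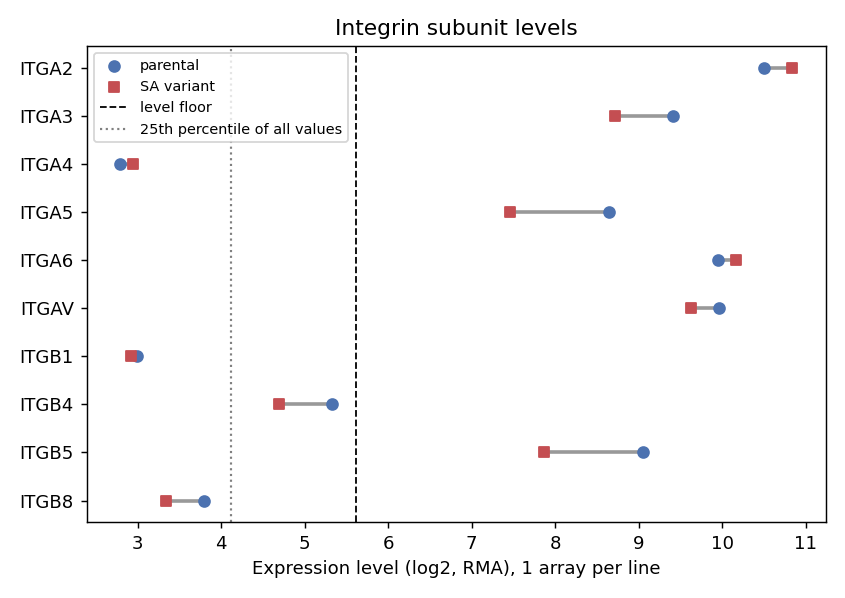
Expression level (log2, x axis) of each integrin subunit on the parental array (circles) and the SA array (squares), joined by a grey line, with the level floor of 5.62 (dashed) and the 25th percentile of all values, 4.12 (dotted). The longest lines are those of ITGA5 and ITGB5, each with the SA value on the left; ITGA4, ITGB1, ITGB4 and ITGB8 lie left of the floor on both arrays. Each gene is to be read along its own line.

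ITGA5 forms the main fibronectin receptor with ITGB1, binding the RGD motif of fibronectin. Its level (ENSG00000161638_at) was 8.64 in the parental line and 7.46 in the SA variant, a difference of -1.18 (2.27-fold lower in the SA variant). The SA value was still above the floor. ITGB5 pairs with ITGAV to form a receptor of vitronectin that also takes part in endocytosis. Its row (ENSG00000082781_at) read 9.05 in the parental line and 7.86 in the SA variant, a difference of -1.19 (2.28-fold lower). Both subunits thus lay above the floor in both lines, with differences of nearly the same size.

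Set against all compared genes, these differences were large but not outside the bulk. The central 95% of the 9725 differences ran from -1.20 to 1.42, so ITGA5 and ITGB5 both lay just inside its lower end. A more negative difference than that of ITGA5 was seen in 2.62% of the compared genes, and than that of ITGB5 in 2.55%. Among the 500 features nearest to each in mean level, the shares were 2.20% and 3.60%. These shares describe the 2 arrays and do not say how far either gene would vary between repeat cultures.

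**Figure D2:**
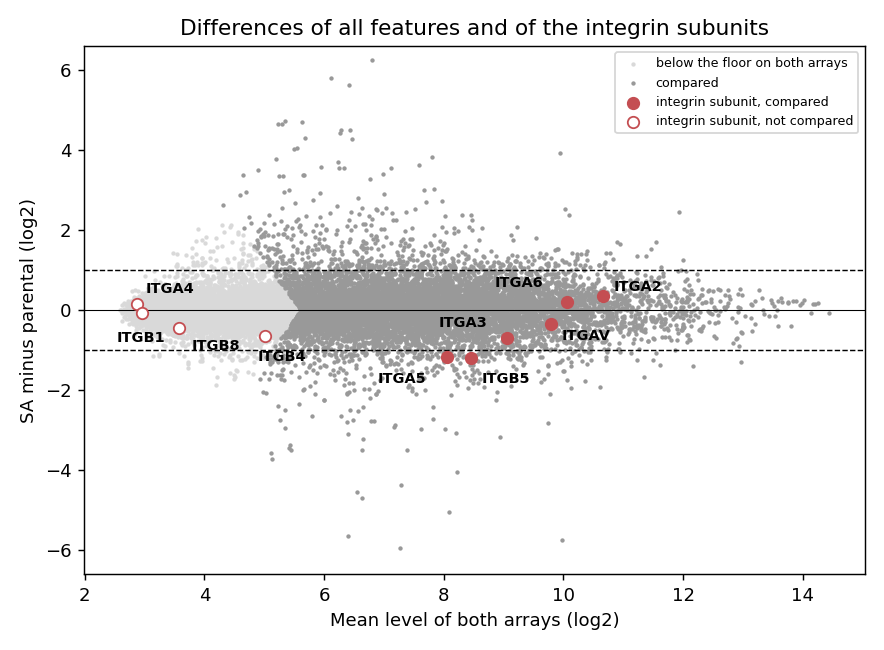
Difference SA minus parental (log2, y axis) against the mean level of both arrays (log2, x axis) for all 18394 features, with the 6 integrin subunits compared as filled circles and the 4 below the floor as open circles. Dashed lines mark 2-fold. ITGA5 (-1.18) and ITGB5 (-1.19) lie below the lower line, and the other 8 subunits lie between the lines.

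The starts of the genes of both 2-fold lower subunits are shown because they were the members whose levels were more than 2-fold lower together. The windows are those of RefSeq on build GRCh38.p14, from 250 bases before to 50 after a transcription start, written 5′ to 3′ on the gene's strand. RefSeq's table holds 1 window for ITGA5 and 3 for ITGB5, and which start these cells use is not known from the array. Capitals mark matches, on either strand, to 3 motifs chosen after the values had been seen. The AP-1 site was searched as TGANTCA, which reads the same on both strands. The GC box was searched as GGGCGG. The E-box was searched as CACCTG. No matches overlapped in these windows.
ITGA5, chr12:54419217-54419516, minus strand: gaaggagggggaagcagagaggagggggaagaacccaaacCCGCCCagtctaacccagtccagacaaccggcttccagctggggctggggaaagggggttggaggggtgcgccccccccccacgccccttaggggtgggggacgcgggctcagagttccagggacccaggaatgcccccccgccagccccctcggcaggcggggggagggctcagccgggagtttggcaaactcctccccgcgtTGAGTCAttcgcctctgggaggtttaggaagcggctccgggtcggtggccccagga
ITGB5, window 1, chr3:124887316-124887615, minus strand: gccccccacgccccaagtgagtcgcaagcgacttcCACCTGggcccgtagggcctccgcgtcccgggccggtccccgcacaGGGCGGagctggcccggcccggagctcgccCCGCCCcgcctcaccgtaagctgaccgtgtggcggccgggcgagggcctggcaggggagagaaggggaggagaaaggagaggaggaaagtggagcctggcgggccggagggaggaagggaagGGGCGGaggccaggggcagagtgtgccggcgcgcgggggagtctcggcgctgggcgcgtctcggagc
ITGB5, window 2, chr3:124887635-124887934, minus strand: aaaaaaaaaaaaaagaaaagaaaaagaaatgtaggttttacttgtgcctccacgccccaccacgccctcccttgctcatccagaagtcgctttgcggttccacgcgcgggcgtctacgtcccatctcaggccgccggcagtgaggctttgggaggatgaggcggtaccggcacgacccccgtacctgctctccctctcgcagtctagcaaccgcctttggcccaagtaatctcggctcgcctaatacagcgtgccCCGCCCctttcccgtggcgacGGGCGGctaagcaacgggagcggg
ITGB5, window 3, chr3:124901369-124901668, minus strand: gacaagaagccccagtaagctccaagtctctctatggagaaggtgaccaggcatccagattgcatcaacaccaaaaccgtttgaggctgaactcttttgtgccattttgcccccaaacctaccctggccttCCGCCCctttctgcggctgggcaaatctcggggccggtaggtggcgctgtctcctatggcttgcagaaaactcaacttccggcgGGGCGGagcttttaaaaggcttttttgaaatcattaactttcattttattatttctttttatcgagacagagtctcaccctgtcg

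The ITGA5 window held 1 AP-1 match, whose first base lay at -6 counted from the start, and 1 GC box at -210. The ITGB5 windows held 3, 2 and 2 GC boxes, the first of them also 1 E-box, at -215, and none an AP-1 match. An AP-1 match was present in 7.71% of all 35116 windows of this length in the table, a GC box in 44.95% and an E-box in 20.6%. The GC box was therefore the 1 motif of the 3 found near both genes, and it is a frequent one. These shares are per window, and a gene with several windows has more places for a match. The share per gene was not computed. Windows were found for 8 of the 10 subunits, 13 windows in all, with no entry used for ITGA3 and ITGB4. A GC box stood in 9 of the 13, in 6 of the 8 subunits, an E-box in 2 windows and an AP-1 match in the ITGA5 window alone. The 2 ITGA6 windows overlap and share a GC box, which is counted in both. Base composition was high in G and C, with a median of 70.7% over the 13 windows against 58.7% over all windows; the part of base composition in the GC box count was not tested. A match is a run of letters and does not show that a factor binds there.

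Of the other α chains compared, ITGA3 was the one with the larger difference. ITGA3 joins ITGB1 to make a receptor for laminins of the basement membrane. Its row (ENSG00000005884_at) read 9.41 in the parental line and 8.71 in the SA variant, a difference of -0.70 (1.62-fold lower). With ITGA5 and ITGB5 it made 3 of the 6 subunits at least 1.5-fold lower, and 0 of the 6 were 1.5-fold higher, where 11.8% and 15.8% of all compared genes passed this size. A more negative difference than that of ITGA3 was seen in 8.79% of the compared genes, so its value was a common one.

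ITGAV is the α chain shared by the vitronectin-binding and TGF-β-activating integrins. Its level (ENSG00000138448_at) was 9.97 in the parental line and 9.63 in the SA variant, a difference of -0.34 (1.27-fold lower), and 22.3% of compared genes had a more negative one. ITGA2, which with ITGB1 is a receptor for fibrillar collagen such as the collagen I of bone, was the subunit with the most positive difference. Its row (ENSG00000164171_at) read 10.49 in the parental line and 10.83 in the SA variant, a difference of 0.34 (1.27-fold higher). A more positive difference was seen in 28.5% of compared genes. ITGA6 makes laminin receptors with either ITGB1 or ITGB4. Its row (ENSG00000091409_at) read 9.95 in the parental line and 10.16 in the SA variant, a difference of 0.21 (1.15-fold higher), exceeded by 37.4% of compared genes. ITGAV, ITGA2 and ITGA6 therefore lay well within the spread of genes in general.

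Among the 6 compared subunits, 4 were lower and 2 higher in the SA variant at any size, and 46.2% of all compared genes were lower. Their median difference was -0.52, beside 0.045 over all compared genes. Over all 10 subunits, without a floor, 7 were lower and 3 higher, beside 50.5% lower among all 18394 features, and the medians were -0.39 and -0.0045. These 10 include ITGA4, ITGB1, ITGB4 and ITGB8, which lay below the floor and whose differences are not read as changes. The 10 are a small list chosen with results known, so these counts and medians are a description of it.

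The 4 subunits below the floor had values at which background makes up much of an RMA level, so their differences are not read as changes. ITGB4, the long-tailed partner of ITGA6 in hemidesmosomes, came closest to being compared. Its row (ENSG00000132470_at) read 5.33 in the parental line and 4.69 in the SA variant, a difference of -0.64. ITGB8, a partner of ITGAV that activates latent TGF-β, (ENSG00000105855_at) read 3.79 in the parental line and 3.35 in the SA variant, a difference of -0.45. ITGA4, a chain of the VCAM-1 receptor of leukocytes, (ENSG00000115232_at) read 2.79 in the parental line and 2.95 in the SA variant, a difference of 0.16. ITGA4, ITGB1 and ITGB8 lay below the 25th percentile of all values, 4.12, on both arrays.

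The low values of ITGB1 go against what is known of its RNA. ITGB1 is the common β1 chain, present on nearly all adherent cells, and without it ITGA2, ITGA3 and ITGA5 have no known β partner. Its row (ENSG00000150093_at) read 3.00 in the parental line and 2.93 in the SA variant, a difference of -0.07. Both lay below the floor and below the 25th percentile of all values. These numbers are the signal of the probes grouped under that ID and are no measure of how much β1 chain the cells made. Which probes a row sums up is not stated, for ITGB1 or for any other subunit. The reason for the low ITGB1 signal was not tested. No β1 level or change can therefore be read from these data.

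Because integrins work as pairs, the differences were also set beside each other by known pair. Of the 9 pairs that the 10 subunits can form, 6 contain ITGB1, and the β chain lay below the floor in 8. Both chains were compared in 1 pair, ITGAV with ITGB5. There ITGAV differed by -0.34 and ITGB5 by -1.19, so the log2 ratio of ITGB5 to ITGAV was lower in the SA variant, with a difference of -0.85. Among the 500 features nearest in mean level, the differences had a standard deviation of 0.67 for ITGAV and 0.62 for ITGB5. The spread of such ratios over other pairs of genes was not computed, so -0.85 is not read as a shift within the pair. For ITGA6 and ITGB4 the differences were 0.21 and -0.64, and for ITGAV and ITGB8 -0.34 and -0.45. ITGB4 and ITGB8 lay below the floor on both arrays, so their differences are not read as changes. Between the 5 compared α chains that can pair with ITGB1, the difference ran from -1.18 for ITGA5 through -0.70 for ITGA3 and -0.34 for ITGAV to 0.21 for ITGA6 and 0.34 for ITGA2. ITGA4 is left out of this order because it lay below the floor. The values of the laminin-binding chains ITGA3 and ITGA6 had opposite signs, though that of ITGA6 lay well within the spread of genes in general. With no replicate, it cannot be said which chains in this order, neighbours or not, differ from each other.

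**Figure D3:**
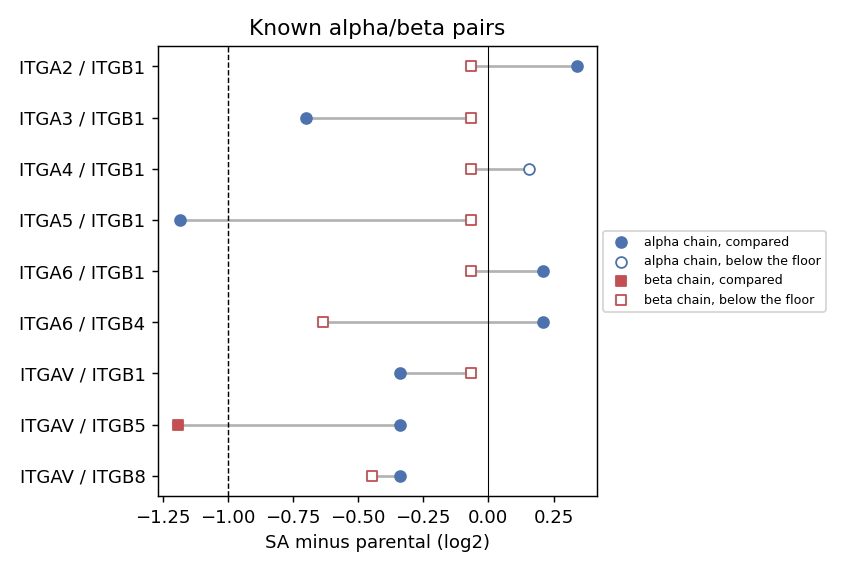
Difference SA minus parental (log2, x axis) of the α chain (circle) and β chain (square) of each of the 9 known pairs, with open symbols for chains below the floor on both arrays and a dashed line at 2-fold lower. Both symbols are filled only for ITGAV with ITGB5, where ITGAV lies at -0.34 and ITGB5 at -1.19.

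The values of the 6 compared subunits moved little when the arrays were scaled in other ways. ITGA5 stayed between -1.23 and -1.18 and ITGB5 between -1.25 and -1.19 as deposited, after centring on the median difference, after subtracting a trend on level and after the 2 columns were quantile normalized. ITGA3 ranged from -0.76 to -0.70 and ITGAV from -0.39 to -0.34 over the same 4 scalings. ITGA2 ranged from 0.29 to 0.34 and ITGA6 from 0.16 to 0.21, so the direction was the same in each of the 6. The scalings reuse the same 2 arrays and say nothing about how repeat cultures would vary.

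**Figure D4:**
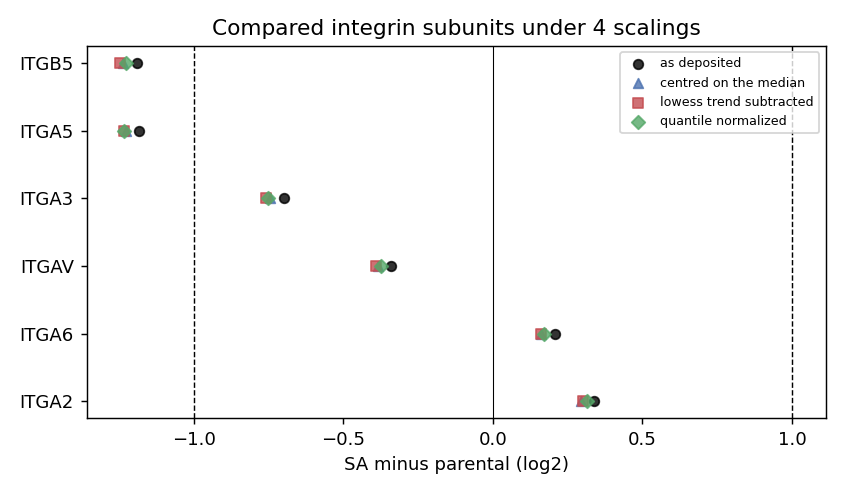
Difference SA minus parental (log2, x axis) of the 6 compared subunits as deposited and under 3 other scalings of the arrays, with dashed lines at 2-fold. ITGA5 and ITGB5 lie left of the line at -1 under all 4 scalings, and the other 4 subunits lie between the lines.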

How the data were processed

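The deposited log2 values were made by the authors with RMA, which corrects background, equalises the arrays' probe distributions and summarises probes, per the submitters' processing notes. The RMA version, array model, probe grouping and log base were not stated. A base of 2 was taken since RMA output is on that scale and the values ran from 2.50 to 14.5. The difference SA minus parental was taken for each row, and a fold is 2 to the power of its size; background shrinks differences of dim genes. A gene counted as higher or lower at a difference of at least 2-fold, a rule of size and no test. Every subunit was named. The subunits were chosen with earlier results of these data known. Other adhesion gene lists and cell type markers had been fixed by symbol, but no table used here pairs symbols with the rows' Ensembl IDs, so these are not analysed here and the line's identity was not checked against its markers. Promoter windows were matched by symbol. Alternatives were 3 other scalings, 4 other floors and size rules of 1.5-fold and 3-fold. Python 3.11.15, pandas 2.3.3, statsmodels 0.14.6 (lowess, span 0.4) and matplotlib 3.10.9 were used.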

Additional observations from a re-analysis of the deposited data

How the results depend on the processing

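No paired analysis was possible because each line had 1 array, and for the same reason no replicate could be left out. The count of subunits at least 2-fold lower stayed at 2 under the 3 other scalings. It also stayed at 2 under the 4 other floors, which could not change it. The stricter floors kept the same 6 subunits, and those that looser floors add differed only from -0.64 to 0.16. The count was 3 with a size rule of 1.5-fold and 0 with one of 3-fold, where 1.19% of all compared genes were lower. A stricter size rule can only remove genes. The count of higher subunits was 0 under every alternative run. Floors and size rules could not change that count, since the most positive difference, that of ITGA2, was 0.34. The median difference of the compared subunits ran from -0.64 with the floor at the 25th percentile, which adds ITGB4, to -0.39 with no floor. Dim signal limits ITGA4, ITGB1, ITGB4 and ITGB8, and their differences after trend subtraction were not computed, since the trend was set on compared genes.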
